A study of Ovis aries with 18 samples.

Results

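Imprinted genes are expressed mainly from the copy inherited from a single parent, and 10 of them that are imprinted in mammals were chosen by name for description in sheep embryos: IGF2, IGF2R, PEG3, PEG10, MEST, SNRPN, GRB10, PLAGL1, PHLDA2 and CDKN1C. Of these 10, 7 were analysed among the 20092 genes of the count table, 5 of them had enough counts to be tested, and IGF2, PEG10 and CDKN1C were not analysed here. RNA was sequenced in 12 pools of 5 blastocysts, early to hatched, flushed from superovulated Polypay ewes, 6 pools sired by control rams and 6 by methionine-treated rams. All rams were Polypay and were fed the study's diets before puberty, with the feeding over about 2 months before mating. The control rams ate a basal diet, and the treated rams ate that diet with 1.5 g of methionine added, an amino acid that serves as a methyl donor, in a form protected from breakdown in the rumen. Control Ram410, Ram423 and Ram444 sired 2 pools each, whereas treated Ram424 sired 4 pools and treated Ram498 and Ram511 sired 1 each. The ewe behind each pool is not in the labels, so sire and dam cannot be told apart, and the embryos of a pool were sequenced together.

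The parent of origin of an imprinted gene is written in the germ line, chiefly as DNA methylation that differs between egg and sperm, and proteins such as ZFP57 and TRIM28 protect these marks while the rest of the genome is reprogrammed in the early embryo. Genes expressed from the paternal copy often promote growth of the fetus and placenta, and genes expressed from the maternal copy often restrain it. IGF2, a growth factor, and IGF2R, the receptor that carries it to lysosomes for breakdown, are the classic example of this opposition. Counts per gene do not separate the parental copies, so the values below are levels summed over both copies, not measures of imprinting.

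Total counts ranged from 1173289 to 1554651 in control pools and from 1017847 to 2398589 in methionine pools. These totals are far below the reads per pool that the paper reports, and the reason was not tested. Levels are given as CPM, counts scaled to a common library total after TMM normalization (trimmed mean of M-values). Only 517 genes in Embryo424_4 to 1158 in Embryo511_1 were at 0, and sperm and testis markers had counts in every pool, as given below. A background level for signal not specific to a gene was not estimated. The limits given below for pools at 0 cover counting error only. Over all tested genes, 10 pools resembled each other with Spearman correlations of 0.806 to 0.955, whereas control pool Embryo444_2 and methionine pool Embryo511_1 had correlations of only 0.526 to 0.626 with every other pool. These libraries also differed in the markers of the blastocyst. The 9 measured of 13 trophectoderm markers summed to 272.5 CPM in Embryo444_2 and 215.1 CPM in Embryo511_1, against 5294 to 14410 CPM in the other 10 pools, where KRT8 and KRT18, keratins of the trophectoderm, gave most of the sum. The 8 measured of 12 epiblast markers summed to 208.1 and 331.1 CPM, against 508.2 to 1275 CPM. The 8 measured of 12 oocyte markers reached 832.8 CPM in Embryo511_1 and 147.2 CPM in Embryo444_2, against 163.7 to 288.7 CPM, and the 8 measured of 10 sperm and testis markers reached 1426 and 620.1 CPM, against 178.6 to 307.3 CPM. Both libraries therefore went against the blastocyst label at its defining markers, and the comparisons of sire diets are given with and without them. Pools Embryo424_1 and Embryo424_2 were the most alike. Their chi-square per degree of freedom was 3.16, against 7.84 to 11.1 in the other same-ram pairs and 24.4 for the pair that includes Embryo444_2. That statistic takes reads as independent draws, which reads of amplified RNA are not. It therefore cannot show whether Embryo424_1 and Embryo424_2 differ beyond technical noise.

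Levels of the member genes were examined first in each pool, starting with the maternally expressed genes that restrain growth. IGF2R had 211 to 387 CPM in control pools (median 299.1) and 79.3 to 536 CPM in methionine pools (median 261). The groups overlapped, and both extremes were methionine pools: Embryo511_1 was the lowest of all 12 and Embryo424_2 the highest. The counts behind these levels were 80 to 946 per pool. GRB10, an adaptor protein that binds the insulin and IGF1 receptors and dampens their signal, had 73.6 to 261 CPM in control pools (median 113.6) and 50.6 to 137 CPM in methionine pools (median 107.8). Control pools Embryo423_1 (261 CPM) and Embryo410_1 (187 CPM) lay above every methionine pool, while the other 4 control pools were within the range of the methionine pools. GRB10 is expressed from the maternal copy in most mouse tissues and from the paternal copy in neurons.

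PHLDA2, a small protein with a pleckstrin homology domain that restrains placental growth, was close to the limit of detection. Its counts totalled 14 in the 6 control pools and 7 in the 6 methionine pools, with 0 to 8 counts in a pool. The higher values were 5.67 CPM in control pool Embryo410_2 and 2.82 CPM in methionine pool Embryo424_3, and 3 pools were at 0, which allows up to 1.81 to 2.97 CPM (a limit of 3 counts, for counting error only). PHLDA2 did not pass the filter on low counts. In RefSeq's order of genes PHLDA2 lies between NAP1L4 and SLC22A18, with CARS1 and CDKN1C just beyond, in a domain of maternally expressed genes. NAP1L4 had 50.6 to 254 CPM, whereas SLC22A18, a membrane transporter gene, had 0.642 to 4.96 CPM and did not pass the filter either.

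Of the paternally expressed genes, PEG3, a zinc finger transcription factor that influences growth and maternal behaviour in mice, varied the most. It had 43.6 to 109 CPM in control pools (median 65.95) and 61.0 to 281 CPM in methionine pools (median 131.7). Embryo511_1 was the highest pool, and methionine pools Embryo424_1, Embryo424_2 and Embryo424_3 (148, 155 and 116 CPM) also lay above every control pool. Methionine pools Embryo424_4 (61.0 CPM) and Embryo498_1 (87.9 CPM) lay within the control range. In control pools only Embryo444_2, with 109 CPM, exceeded 71.5 CPM. The 4 pools of Ram424 alone spanned 61.0 to 155 CPM, a range that held a value below the control median and values above every control pool.

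MEST, which encodes an enzyme of the alpha/beta hydrolase fold expressed in mesoderm, had 17.3 to 52.9 CPM in control pools (median 32.73) and 18.2 to 33.7 CPM in methionine pools (median 23.72). The control range enclosed all methionine pools, and control pools Embryo423_1 and Embryo444_1 (52.9 and 45.4 CPM) were the highest. MEST overlaps COPG2, a coatomer subunit, in RefSeq's gene models, and no source used here says whether counting used strand, so reads of the pair may not be separable. The log2 CPM of MEST and COPG2 had a Pearson correlation of 0.707 over the 12 pools and 0.704 over the 10 alike pools, as a description of these libraries. PLAGL1, a zinc finger transcription factor that acts on cell cycle arrest and on other imprinted genes, had 20.6 to 60.2 CPM in control pools (median 39.84) and 20.1 to 43.6 CPM in methionine pools (median 30.31). Its highest pool was Embryo444_2, and it overlaps ZC2HC1B in RefSeq's models. Whether the levels of MEST and PLAGL1, or similar levels of other genes below, lie above signal not specific to the gene was not tested.

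SNRPN, which encodes a protein of the spliceosome, was listed at 0 in all 12 pools, which allows up to 1.43 to 2.97 CPM per pool for counting error. SNRPN overlaps SNURF in RefSeq's models, and STAR's gene counting leaves out reads that fall in more than 1 gene. These models are of another build than the counts, and the part of shared reads in the 0 was not tested. SNURF, the upstream reading frame of the same transcript, had 12 to 55 counts in a pool. Its level was 23.7 ± 8.85 CPM (SD, n = 6) in control pools and 22.8 ± 6.93 CPM (SD, n = 6) in methionine pools, and the log2 fold change between diets was -0.05 (SE 0.31), and -0.02 without Embryo444_2 and Embryo511_1.

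**Figure D1:**
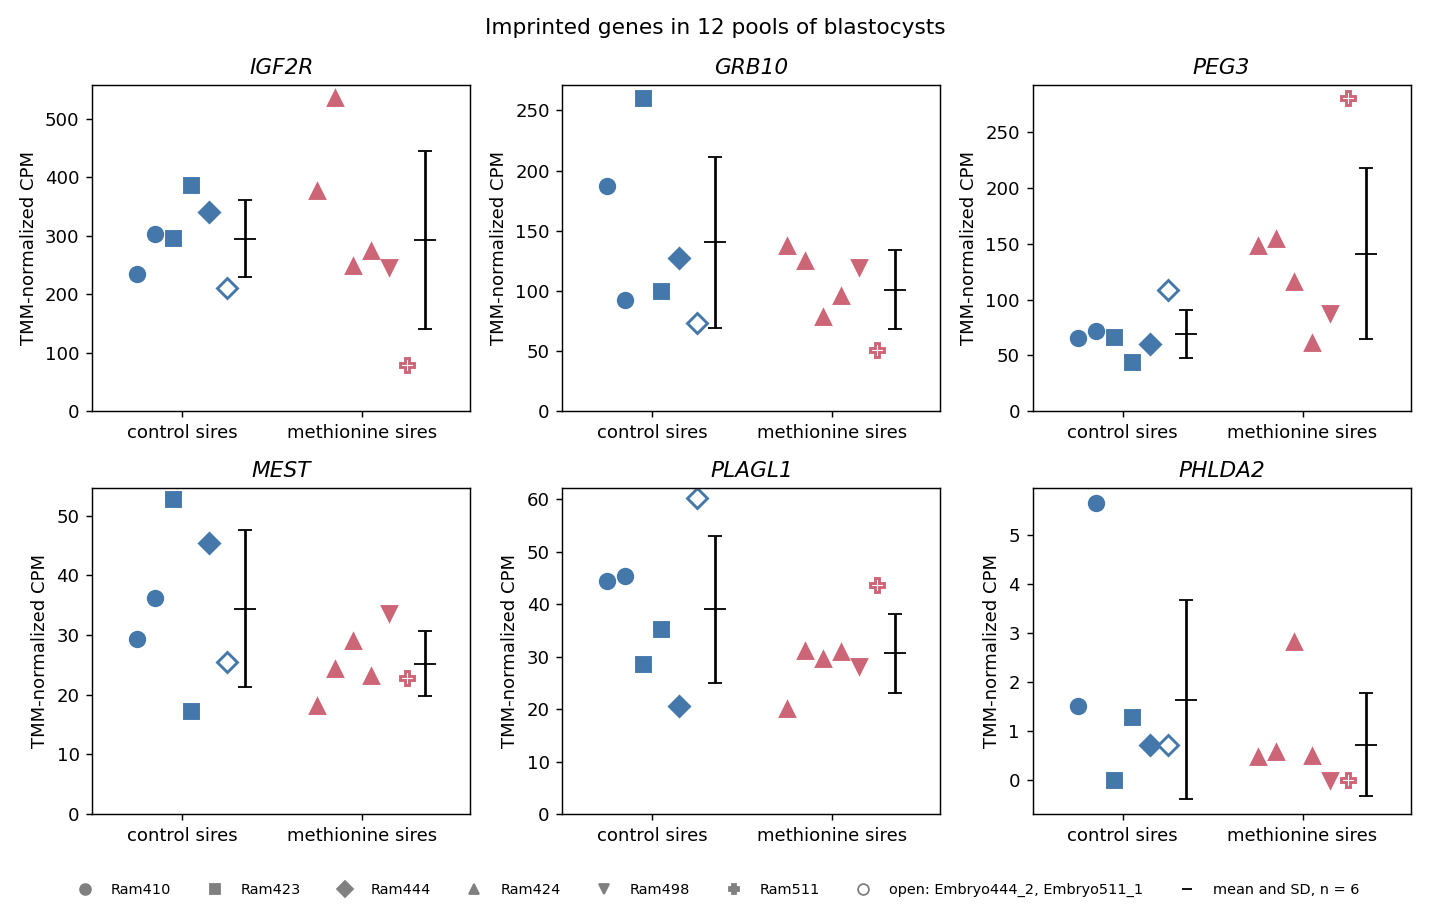
Level of 6 member genes in each pool (vertical axes, TMM-normalized CPM from 0; horizontal axis, diet of the sire). Symbols mark the ram, open symbols Embryo444_2 and Embryo511_1, and black bars the mean and SD over 6 pools. PEG3 is above 109 CPM in 4 methionine pools and in no control pool, while the other genes overlap widely.

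The pools that stood apart in the markers also stood apart in some member genes, and not in the same direction. IGF2R was 0.705 times the median of the other 10 pools in Embryo444_2 and 0.265 times in Embryo511_1. GRB10 was at 0.601 and 0.413 times that median. For both genes, both pools were below the lowest of the other 10, as were 12.9% of all 16488 tested genes, and Embryo511_1 was the lowest of all 12 pools, as it was for 19.3%. PEG3 went the other way, with 1.58 times the median in Embryo444_2 and 4.07 times in Embryo511_1. In Embryo444_2 it was within the range of the other 10 pools (109 CPM, against 43.6 to 154.6 CPM). Embryo511_1 was the highest of all 12 pools for PEG3, as it was for 21.6% of tested genes. PLAGL1 had 1.99 and 1.44 times the median. MEST was within the range of the other 10 pools in both (25.5 and 22.8 CPM, against 17.3 to 52.9 CPM). No member was above the highest of the other 10 pools in both libraries, which 8.15% of tested genes were. In a bulk pool, fewer cells of a type and less RNA per cell cannot be told apart. The part of the low trophectoderm markers in these values was not tested.

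**Figure D2:**
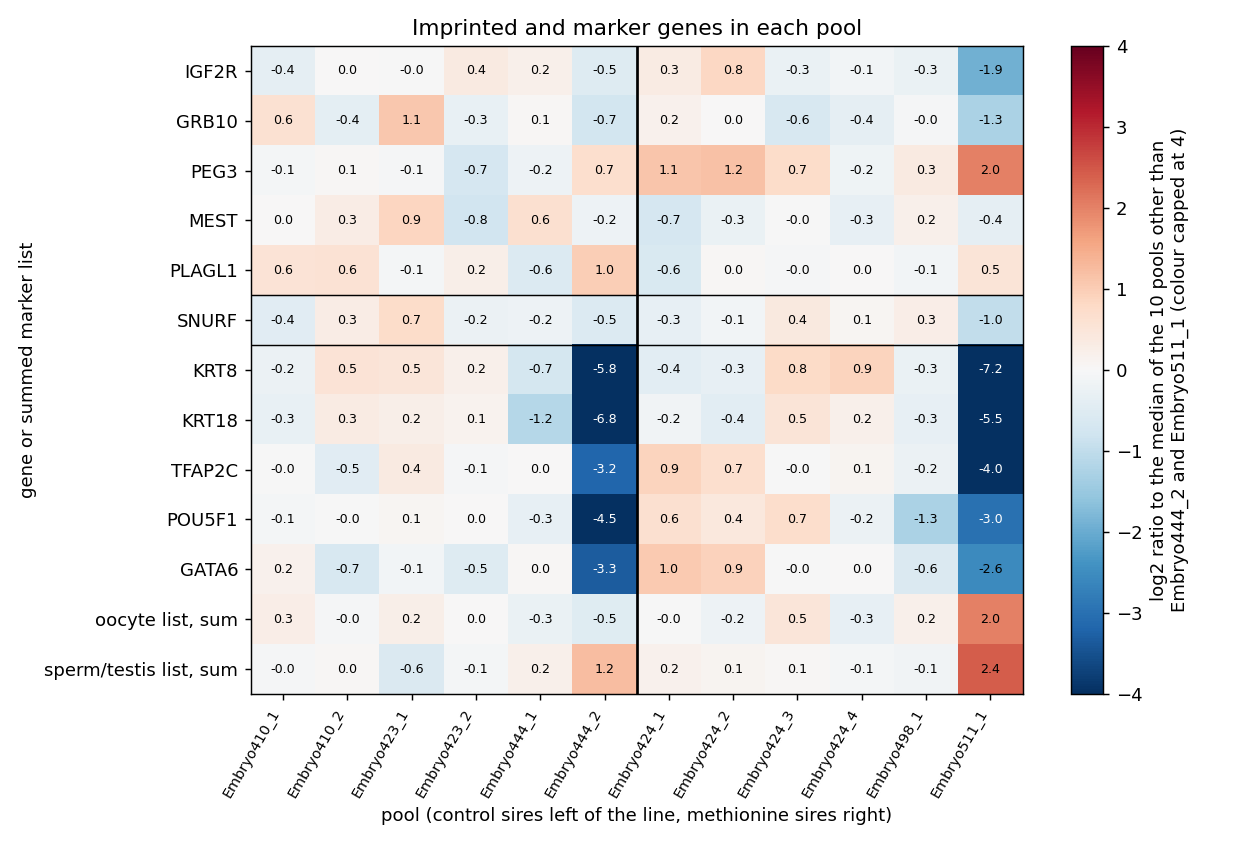
Log2 ratio of each pool (columns) to the median of the 10 pools other than Embryo444_2 and Embryo511_1, for member genes, SNURF, lineage markers and the summed oocyte and sperm or testis lists (rows). Columns left of the line have control sires. KRT8, KRT18, TFAP2C, POU5F1 and GATA6 are low in Embryo444_2 and Embryo511_1. GATA6 is the only hypoblast marker shown. The summed hypoblast list fell less, to 745.4 and 1150 CPM, against 1290 to 2114 CPM in the other 10 pools. IGF2R and GRB10 are also lower in both libraries. PEG3 is above the median in both, but beyond the range of the other 10 pools only in Embryo511_1.

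Sire diets were compared next, to ask whether the methionine diet of the ram was followed by another level of imprinted genes in its embryos. No member gene passed the test. edgeR's quasi-likelihood test, on the 16488 genes that reached 15 counts in 4 or more pools, called 0 genes at a Benjamini-Hochberg FDR under 0.05 (percent called 0), so 0 of the 5 tested members were called, and 7.92% of all genes had an unadjusted p under 0.05 (1306 genes; 3.55% higher and 4.37% lower with methionine). Among the members only PEG3 had such a p, with a higher level. The likelihood-ratio test called 0 of the 5 members (0.0303% of all genes), and so did DESeq2 (0.097%) and the quasi-likelihood test without Embryo444_2 and Embryo511_1 (0.00607%). The pools of the diets overlapped for each of the 5 members, while they did not for 0.352% of all genes. The median log2 fold change, methionine minus control, was -0.36 over the 5 members and 0.0051 over all tested genes, and 4 of the 5 members were below 0, as were 49.5% of all genes. Pools of a ram share a sire, so these p-values take as independent what the design does not make independent.

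PEG3 had 141 ± 76.9 CPM (SD, n = 6) in methionine pools and 69.4 ± 21.7 CPM (SD, n = 6) in control pools. Its fold was 2.03, with a 95% confidence interval of 1.24 to 3.31, an unadjusted p of 0.00745 and an FDR of 0.584 by edgeR's quasi-likelihood test, so it did not pass. Without Embryo444_2 and Embryo511_1 the means were 113 ± 39.6 CPM (SD, n = 5) and 61.5 ± 10.7 CPM (SD, n = 5). The methionine pools left were those of Ram424 and Ram498 only. Of these 5 pools, 4 were above every control pool. They were Embryo424_1, Embryo424_2 and Embryo424_3, which share a sire, and Embryo498_1. The fold was then 1.83 (interval 1.26 to 2.65), with an FDR of 0.262 in the same edgeR test. Averaged per ram, PEG3 had 68.5, 55.0 and 84.7 CPM in control Ram410, Ram423 and Ram444, and 120, 87.9 and 281 CPM in treated Ram424, Ram498 and Ram511. The ram means of the diets did not overlap for PEG3, but the nearest were 87.9 CPM in Ram498 and 84.7 CPM in Ram444. The mean of Ram444 includes Embryo444_2. For IGF2R, MEST, GRB10 and PLAGL1 the ram means overlapped. An exact permutation test over rams, two-sided, gave p = 0.1 for PEG3, the smallest value that the 20 assignments of 6 rams allow. How many of all genes separate the rams in this way was not counted, nor how many have 4 of 5 methionine pools above every control pool. Neither pattern is therefore read as a result about PEG3. Ram511 is represented by Embryo511_1 alone. With pools summed per ram the fold was 2.40 (interval 1.14 to 5.06), and with the ram as a random effect in limma it was 2.05 (interval 1.15 to 3.67), each with an FDR of 1.

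For the other tested members the intervals included a fold of 1. GRB10 had 101 ± 32.6 CPM (SD, n = 6) in methionine pools and 140 ± 71.0 CPM (SD, n = 6) in control pools, a fold of 0.723 with an interval of 0.445 to 1.18 (edgeR FDR 0.74). MEST had 25.2 ± 5.42 CPM (SD, n = 6) and 34.4 ± 13.1 CPM (SD, n = 6), a fold of 0.732 with an interval of 0.474 to 1.13 (edgeR FDR 0.721). PLAGL1 had 30.6 ± 7.58 CPM (SD, n = 6) and 39.1 ± 14.0 CPM (SD, n = 6), a fold of 0.781 with an interval of 0.512 to 1.19 (edgeR FDR 0.758). For all 3 genes the SD was larger in control pools, and the differences in means were smaller than that SD. Without Embryo444_2 and Embryo511_1 the folds were 0.72 for GRB10, 0.704 for MEST and 0.8 for PLAGL1, and their intervals again included 1.

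IGF2R had 294 ± 152 CPM (SD, n = 6) in methionine pools and 295 ± 65.5 CPM (SD, n = 6) in control pools. Its fold was 0.995, and the interval of 0.571 to 1.73 leaves room for differences of moderate size in either direction. The estimate depended on which sire entered: it was 0.555 without the 4 pools of Ram424, 1.14 without Embryo511_1 and 1.07 without Embryo444_2 and Embryo511_1. Averaged per ram, IGF2R ranged from 79.3 CPM in Ram511 to 359 CPM in Ram424, both treated rams, while the control rams had 268 to 341 CPM.

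**Figure D3:**
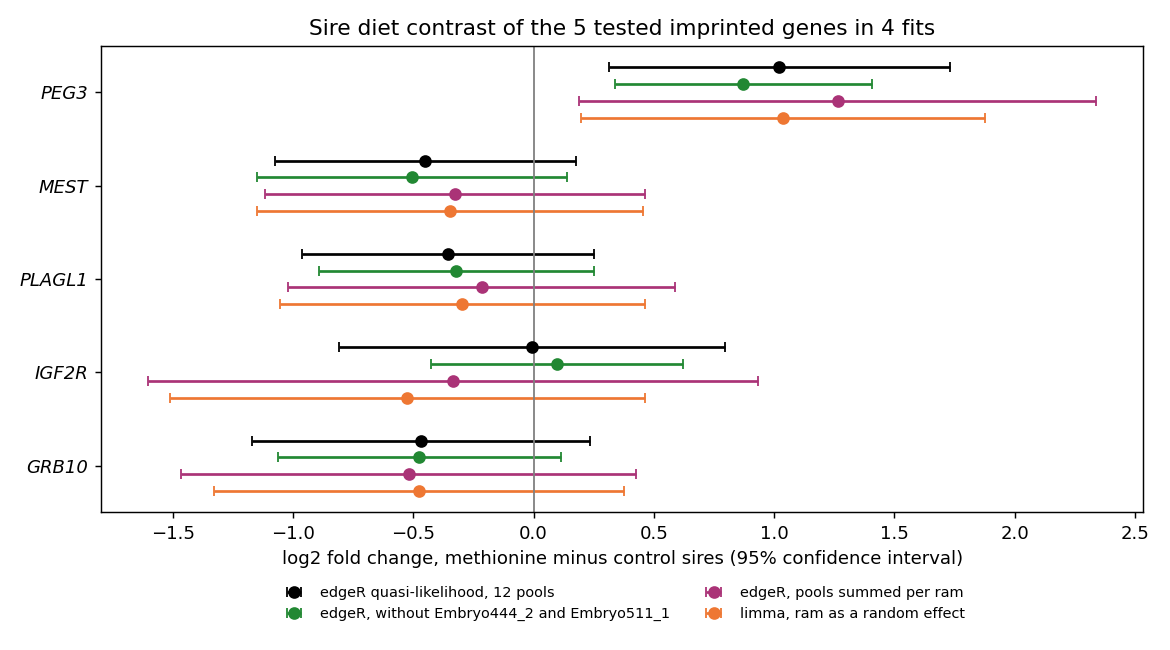
Log2 fold change with its 95% confidence interval (horizontal axis, methionine minus control) for the 5 tested members (vertical axis) in 4 fits, marked by colour. The interval of PEG3 lies above 0 in each fit, and those of MEST, PLAGL1, IGF2R and GRB10 include 0.

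The spread between pools lay above the median of all tested genes for PEG3 and GRB10 and below it for IGF2R and PLAGL1. The coefficient of variation over 12 pools was 62.3% for PEG3, 46.8% for GRB10, 38.0% for IGF2R, 36.0% for MEST and 33.3% for PLAGL1, with a median of 42.2% over all tested genes. Over the 10 alike pools the values were 44.3%, 41.1%, 28.2%, 37.1% and 26.9%, with a median of 33.6%. Pools of the same ram differed in PEG3 by 0.653 log2 CPM on average over 9 pairs, and pools of different rams by 0.887 over 57 pairs. The medians over all genes were 0.519 and 0.684. MEST differed nearly as much within a ram (0.512) as between rams (0.556). Embryo511_1 has no other pool of its ram, so it enters only the pairs of different rams. Most same-ram pairs are of Ram424, and pairs of different rams also cross the diets. These gaps were not computed without Embryo444_2 and Embryo511_1.

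Correlations between members mostly changed when Embryo444_2 and Embryo511_1 were left out. Over 12 pools IGF2R and GRB10 had a Pearson correlation of log2 CPM of 0.546, and over the 10 alike pools it was -0.0285. IGF2R and PEG3 had -0.483 over 12 pools and 0.33 over 10. MEST and GRB10 were similar in both sets, with 0.475 and 0.443. These values describe libraries of which several share a sire and which differ in depth. Among all tested genes, those most like IGF2R over the 12 pools were CDC25B (0.96, and 0.851 over the 10 alike pools), a phosphatase of the cell cycle, and FA2H (0.956 and 0.877), a fatty acid hydroxylase. GRB10 was most like ATXN7L3 (0.933 and 0.892) and TMEM115 (0.916 and 0.868). PEG3 was most like BRIX1 (0.936 and 0.903), a factor of ribosome assembly, and LIMS2 (0.912 and 0.844).

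Other imprinted genes were read from the same fit. Of 62 further genes listed as imprinted in mammals, 44 were measured and 39 tested, and 0 were called by edgeR, by its likelihood-ratio test or by DESeq2. At an unadjusted p under 0.05 there were 3 of 39 (7.69%), all lower with methionine: SLC22A3, GPR1 and ZIM2, named after their values were seen. Over all genes the share was 7.92% in either direction, with 4.37% lower and 3.55% higher. SLC22A3, an organic cation transporter of the cluster beside IGF2R, had 34.3 ± 10.3 CPM (SD, n = 6) in methionine pools and 58.8 ± 24.6 CPM (SD, n = 6) in control pools. Its log2 fold change was -0.79, and -1.07 without Embryo444_2 and Embryo511_1 (edgeR FDR 0.585 and 0.24). Without Embryo444_2 and Embryo511_1 there were 7 of 39 at an unadjusted p under 0.05, against 11.9% of all genes, and still 0 were called. SLC22A3, KCNK9, KCNQ1, PON3, RTL1 and GPR1 were lower with methionine among them, and UBE3A was higher. The median log2 fold change of the 39 was -0.05. BLCAP, NAP1L4, PPP1R9A and RTL1, which had the highest mean CPM of the list without regard to length, had log2 fold changes of -0.02, 0.16, -0.02 and -0.34. Without Embryo444_2 and Embryo511_1 these were -0.06, 0.20, -0.08 and -0.58. RTL1, a retrotransposon-derived gene needed in the placenta and expressed from the paternal copy, had 77.3 ± 22.7 CPM (SD, n = 6) in methionine pools and 97.4 ± 25.4 CPM (SD, n = 6) in control pools. DLK1, its paternally expressed neighbour, had 0 to 44.3 CPM and did not pass the filter. It had 2.87 ± 2.10 CPM (SD, n = 6) in methionine pools and 13.7 ± 16.8 CPM (SD, n = 6) in control pools. In a fit with no filter its log2 fold change was -2.15 (interval -3.74 to -0.57, unadjusted p 0.0107, edgeR FDR 0.585). The 44.3 CPM came from a single control pool, the control SD exceeded the control mean, and the fit was not repeated without that pool. H19 and MEG3 were not analysed here.

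Some of these genes also stood apart in Embryo444_2 and Embryo511_1. Of the 39 tested, 2 were below the other 10 pools in both libraries, against 12.9% of all genes, and 5 were above, against 8.15%. NAP1L4 (77.9 and 50.6 CPM, against 124.5 to 254 CPM in the other 10) and SNURF were below the other pools in both. PON3, CALCR, ZIM3, RB1 and HTR2A were above them in both, and HTR2A, a serotonin receptor, had 80.0 and 95.2 CPM against 21.9 to 41.7 CPM.

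**Figure D4:**
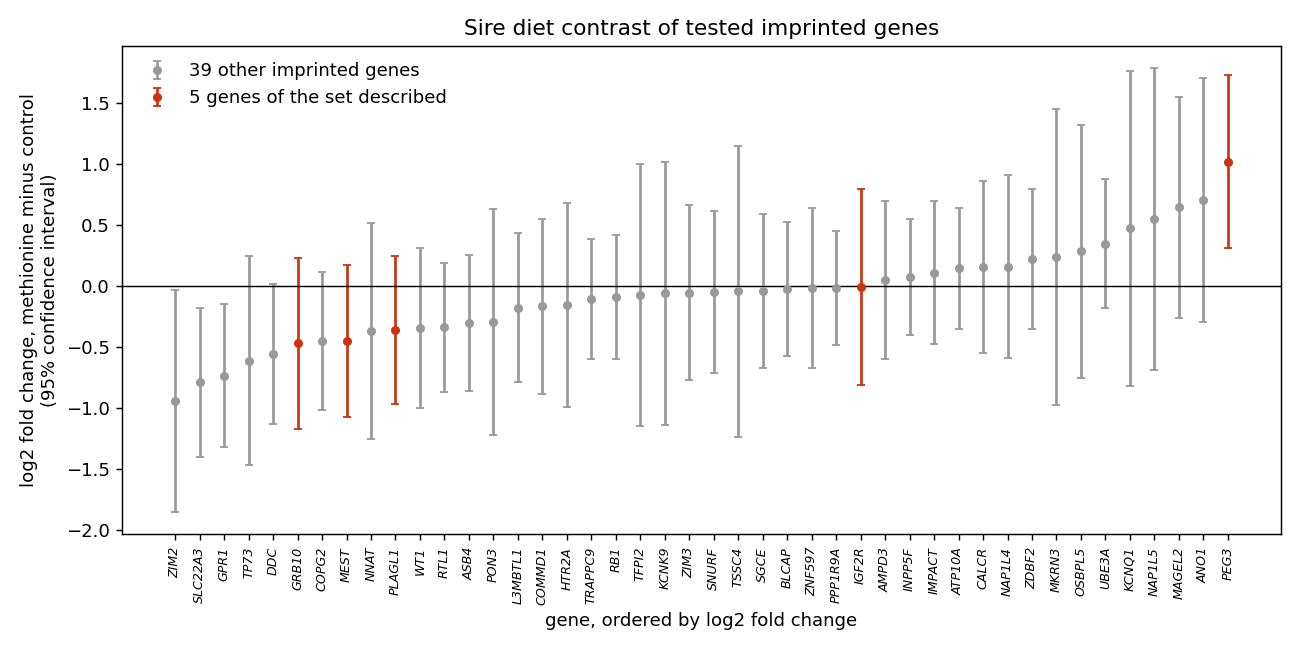
Log2 fold change with its 95% confidence interval (vertical axis, methionine minus control) for 44 tested imprinted genes ordered by their value (horizontal axis), with the 5 members in red. PEG3 has the highest estimate and ZIM2 the lowest, and none passed an FDR of 0.05.

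The partners of IGF2R and GRB10 in insulin-like growth factor signalling were 7 measured and tested genes of 15 listed, of which 0 were called by edgeR (0% of all genes) or DESeq2 (0.097%). At an unadjusted p under 0.05 in edgeR there were 0 of 7 (7.92% of all genes), and 2 of 7 without Embryo444_2 and Embryo511_1 (11.9% of all genes). These were IGF2BP1, higher with methionine, and IRS1, an adaptor of the insulin receptor, which was lower (log2 fold change -0.51). IGF1R, the signalling receptor for both IGF1 and IGF2, had 190 ± 101 CPM (SD, n = 6) in methionine pools and 208 ± 65.2 CPM (SD, n = 6) in control pools. Its log2 fold change was -0.13, and -0.02 without Embryo444_2 and Embryo511_1. INSR, the insulin receptor, had a log2 fold change of -0.21 (-0.20 without those libraries), and it was above the other 10 pools in Embryo444_2 and Embryo511_1 (285 and 245 CPM, against 74.8 to 150 CPM). IGF2BP1 and IGF2BP3, RNA-binding proteins that bind IGF2 transcripts, had log2 fold changes of 0.71 (SE 0.43) and 0.54 (SE 0.28), and 0.70 and 0.41 without Embryo444_2 and Embryo511_1. IGF2BP1 was 23.4 and 40.7 CPM in the libraries that stood apart, against 110 to 249 CPM in the others. Of the 7 genes, only IGF2BP1 was below the others in both libraries, as were 12.9% of all genes. Only INSR was above them in both, as were 8.15% of all genes.

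Factors that set or keep imprints were 17 measured and 16 tested genes of 21 listed, and 0 were called by edgeR (0% of all genes) or DESeq2 (0.097%). At an unadjusted p under 0.05 in edgeR there were 0 of 16 (7.92% of all genes). Without Embryo444_2 and Embryo511_1 there were 2 of 16 (11.9% of all genes), TRIM28 and ZFP57, which went opposite ways. TRIM28 was then higher with methionine, and ZFP57 was lower (log2 fold change -0.76, and -0.48 over 12 pools). DNMT3A, a DNA methyltransferase, had 649 ± 158 CPM (SD, n = 6) in methionine pools and 560 ± 198 CPM (SD, n = 6) in control pools. Its log2 fold change was 0.21, and 0.15 without Embryo444_2 and Embryo511_1. TRIM28, the corepressor that ZFP57 recruits to imprinted regions, had 267 ± 201 CPM (SD, n = 6) and 127 ± 52.0 CPM (SD, n = 6), and the log2 fold change was 1.08 (SE 0.55). In Embryo444_2 and Embryo511_1 it had 26.2 and 25.8 CPM, against 126 to 603 CPM in the other 10 pools. TRIM28 and DNMT3A were the 2 of 16 genes below the other pools in both libraries, as were 12.9% of all genes. Above them in both were 0 of 16, against 8.15% of all genes. Without these libraries the log2 fold change of TRIM28 was 1.09 with an FDR of 0.262 by edgeR. CTCF, which insulates the IGF2 and H19 region, and SETDB1, a histone methyltransferase, had log2 fold changes of 0.26 and -0.19, and 0.21 and 0.06 without Embryo444_2 and Embryo511_1.

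Sperm methylation around the member genes was not analysed here, because no gene positions on the genome build of the sperm data were at hand. One cytosine of that data was read because the study's annotation places it in an intron of CARS, the neighbour of PHLDA2: position 50425765 on chromosome 21 of Oar_rambouillet_v1.0, plus strand. Other cytosines near PHLDA2 were not analysed here. Its methylation level was 62.5%, 65.7% and 72.2% in control Ram410, Ram423 and Ram444 and 42.6%, 33.3% and 39.0% in treated Ram424, Ram498 and Ram511, at 24 to 141 reads per ram. The Wilson 95% intervals for counting error alone were 42.7 to 78.8%, 56.1 to 74.2% and 59.1 to 82.4% in the control rams, and 31.0 to 55.1%, 24.5 to 43.6% and 31.3 to 47.2% in the treated rams, in the same order. Those of Ram423 and Ram444 lay above all 3 treated rams, and that of Ram410 overlapped them. The site was chosen by the study for its difference between these rams and is given as a description.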

How the data were processed

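RNA was amplified as a whole transcriptome from 12 pools of 5 embryos. The authors trimmed reads with Trimmomatic, aligned them to Oar_rambouillet_v1.0 with STAR and deposited its raw counts per gene, with the strand setting not given in the sources used here. For sperm, the authors aligned bisulfite reads with Bismark and deposited counts of methylated and unmethylated reads per cytosine. No molecular identifiers are described for the RNA libraries, so their reads are not independent molecules, and p-values measure only the spread between pools.

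Groups followed the diet in the labels. Genes that reached 15 counts in 4 or more pools were normalized by TMM and tested with edgeR 4.0.16 (glmQLFit and glmQLFTest, R 4.3.3), two-sided, with FDR over all genes, after a check on simulated counts. The alternatives used edgeR, limma 3.58.1 and DESeq2 1.42.0. Intervals of folds are 95% intervals from the quasi-likelihood standard error, except those with the ram as a random effect, which are limma's. The named genes were the 10 members, 2 genes most correlated with each of the 3 members highest in CPM, and the 4 highest genes of each list, with H19, MEG3 and DLK1. Others were named after their values were seen. Members and lists were chosen with earlier results of these data known. Gene neighbours are from RefSeq (ARS-UI_Ramb_v3.0, where 10 of 10 member symbols matched), of which no coordinates are given. CPM is not scaled by gene length and served between genes only for these choices. No sequences are printed, for lack of a reference of the same build.

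Other marker lists summed, over the 12 pools, to 745.4 to 2114 CPM (hypoblast, 11 of 12 measured), 52.9 to 161 CPM (cumulus, 3 of 10), 78.7 to 144 CPM (uterine epithelium, 4 of 10) and 122 to 943 CPM (blood, 4 of 10). The hypoblast sum was 745.4 CPM in Embryo444_2 and 1150 CPM in Embryo511_1, against 1290 to 2114 CPM in the other 10 pools. Embryo444_2 had the highest cumulus and uterine epithelium sums, against 52.9 to 95.4 and 78.7 to 134.6 CPM in those 10. Embryo511_1 was within these 2 ranges, and both libraries were within the range of the blood sum.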

Additional observations from a re-analysis of the deposited data

Results flagged for a closer look

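PHLDA2 was flagged in both diets because 1 pool lay far from the other 5. In control pools Embryo410_2 had 5.67 CPM and the next pool 1.5 CPM, and in methionine pools Embryo424_3 had 2.82 CPM and the next pool 0.566 CPM. These levels rest on 8 and 4 counts. The limit was the 95% critical value of Dixon's gap ratio, applied to 12 groups of 6 pools, and chance passes it in about 5% of groups.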

How the results depend on the processing

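In 27 alternatives (25 distinct fits, since 2 rams have 1 pool each), 0 of the 5 members passed an FDR of 0.05 (lowest FDR 0.262). PEG3 stayed above 0, with log2 fold changes from 0.71 without Embryo511_1 to 1.41 without Ram424, and unadjusted p from 0.00212 to 0.0442. MEST (-0.59 to -0.27), GRB10 (-0.71 to -0.20) and PLAGL1 (-0.49 to -0.12) stayed below 0. IGF2R changed sign in 12 of the 25 distinct fits: it was 0.0137 with DESeq2, 0.0134 with RLE, 0.0097 with no filter, 0.0969 without Embryo444_2 and Embryo511_1 together, and -0.85 to 0.19 with a pool or ram left out, and the cause was not tested. Over all genes the likelihood-ratio test called 5, DESeq2 16 and the fit without Embryo444_2 and Embryo511_1 called 1, and leaving out any pool or ram called 0. Genes at an unadjusted p under 0.05 numbered 355 with the ram as a random effect, 572 with pools summed per ram and 1959 without Embryo444_2 and Embryo511_1. The last setting, and the sum of Embryo424_1 and Embryo424_2, were chosen after seeing the data. No paired analysis was possible because the pool numbers count pools within a ram. The tests of sperm methylation around member genes were not run, for want of gene positions. With no filter, PHLDA2 had a log2 fold change of -1.10 (interval -3 to 0.80, edgeR FDR 0.767), which shows how little its depth can resolve.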
